A study of Homo sapiens with 20 samples.

Results

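The RNA of 10 genes that carry the negative feedback and the transcriptional output of RAS-MAPK signaling was followed in proteasome inhibitor resistant and wild-type (WT) cell lines. The genes were chosen by symbol, with earlier results of these data known. They are the phosphatases DUSP4, DUSP5 and DUSP6, the Sprouty genes SPRY2 and SPRY4, and the Spred genes SPRED1 and SPRED2. The others are the transcription factors ETV4 and ETV5, and PHLDA1. All 10 are among the 18305 genes of the deposited table, and all 10 passed the filter on low values that kept 13089 genes for testing. Their NCBI gene IDs in the table are 1846 for DUSP4, 1847 for DUSP5, 1848 for DUSP6, 10253 for SPRY2, 81848 for SPRY4, 161742 for SPRED1, 200734 for SPRED2, 2118 for ETV4, 2119 for ETV5 and 22822 for PHLDA1.

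RNA-seq was performed on 20 libraries in 10 groups, each with 2 biological replicates. Each of the 4 lines was sequenced as WT cells and as cells resistant to bortezomib (BtzR), and AMO1 and L363 also as cells resistant to carfilzomib (CfzR). The human lines are 3 of multiple myeloma (AMO1, L363, RPMI-8226) and 1 B-lymphoblastoid line, ARH-77. Resistance had been evolved in vitro, and the resistant cells were kept in their drug at 90 nM, whereas WT cells grew in the same medium without drug, so that resistance and the presence of the drug cannot be told apart. Whether a resistant line is a single clone is not given in the sources used here.

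In the MAPK cascade, growth factor and cytokine receptors load RAS with GTP through exchange factors, and RAS then activates the kinases RAF, MEK and ERK in turn. ERK induces its own antagonists: dual-specificity phosphatases (DUSPs) remove the activating phosphates from ERK, and Sprouty and Spred proteins restrain the pathway at the level of receptors, RAS and RAF. ETV4 and ETV5 are ETS-family transcription factors whose genes are repressed by Capicua, a DNA-binding repressor that ERK inactivates, and PHLDA1 is a pleckstrin-homology domain protein induced by ERK. RNA of these genes is widely used as a readout of ERK output, and RAS genes are among the most often mutated genes in myeloma.

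The promoters of DUSP6, SPRY4 and PHLDA1 are shown because these genes rose in RPMI-8226 BtzR cells and are among the 6 of 10 genes with an entry in the RefSeq promoter table (GRCh38.p14). Each sequence is the 250 bases before the transcription start, read on the minus strand, which is the strand of all 3 genes. Capitals mark a Capicua octamer.
DUSP6, chr12:89352502-89352751: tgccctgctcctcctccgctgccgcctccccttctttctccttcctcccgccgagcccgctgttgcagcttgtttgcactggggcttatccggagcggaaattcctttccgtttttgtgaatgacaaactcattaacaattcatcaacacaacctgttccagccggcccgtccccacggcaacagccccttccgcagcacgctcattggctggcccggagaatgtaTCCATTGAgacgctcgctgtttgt
SPRY4, chr5:142324248-142324497: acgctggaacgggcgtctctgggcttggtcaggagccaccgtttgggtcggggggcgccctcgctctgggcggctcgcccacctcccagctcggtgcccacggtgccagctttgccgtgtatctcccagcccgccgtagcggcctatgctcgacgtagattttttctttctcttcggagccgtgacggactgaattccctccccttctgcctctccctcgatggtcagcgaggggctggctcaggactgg
PHLDA1, chr12:76031777-76032026: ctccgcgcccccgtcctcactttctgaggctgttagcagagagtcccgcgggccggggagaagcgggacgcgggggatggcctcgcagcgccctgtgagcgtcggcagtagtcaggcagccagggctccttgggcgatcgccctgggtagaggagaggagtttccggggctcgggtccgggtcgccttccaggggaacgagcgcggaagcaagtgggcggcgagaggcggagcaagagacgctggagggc
The DUSP6 promoter held TCCATTGA, the reverse complement of the Capicua octamer TCAATGGA, starting 24 bases before the transcription start. On both strands, TCAATGGA occurs in 0.436% of the 35116 RefSeq promoter windows of this length. The other Capicua octamers searched were TGAATGAA (in 1.40% of windows), TGAATGGA (0.832%) and TCAATGAA (0.635%), and any of the 4 octamers occurs in 3.18%. Neither the SPRY4 nor the PHLDA1 window held any of them, nor the ETS site CCGGAAG (8.52% of windows), the AP-1 site TGANTCA (6.57%) or the CRE TGACGTCA (1.65%). The DUSP6 window held none of the last 3 motifs, so that no match overlapped another. DUSP4, DUSP5, ETV4 and ETV5 had no entry.

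The authors deposited FPKM values, which divide the fragments of a gene by the length of its transcripts and by the size of the library, so that levels can be set beside each other between genes. FPKM summed to between 457317 and 494850 per library, and between 10455 and 11023 genes reached 1 FPKM. Replicates correlated with r between 0.986 and 0.998 on the log2(FPKM + 1) scale. Read counts were not used here and the depth is unknown, so a value of 0 is given as listed at 0. All 7 plasma cell markers examined were at 1 FPKM or more in the AMO1 and L363 groups and 6 of them in both RPMI-8226 groups. In ARH-77, 7 of them in WT and 6 in BtzR were also at 1 FPKM or more. Their summed FPKM there was 238 to 258, against 506 to 3687 in the other lines. All 7 B cell markers were at 1 FPKM or more in ARH-77, summing to 465 to 585. In the myeloma groups 0 to 3 of the B cell markers were at that level, summing to 0.90 to 123 FPKM. CD79B and CIITA were among them in all myeloma groups but RPMI-8226 BtzR. Markers of T cells, myeloid cells, epithelium, fibroblasts and erythrocytes (17 of 18 in the table) summed to 5.54 to 31.8 FPKM outside RPMI-8226. In RPMI-8226 the same 17 markers summed to 159 to 160 in WT cells and 146 to 170 in BtzR cells. In both, the epithelial genes EPCAM, KRT8 and KRT18, the T cell gene CD3G and the myeloid gene LYZ were at 1 FPKM or more. The epithelial gene CDH1 and the erythroid gene HBA1 were at that level in RPMI-8226 WT and not in BtzR. LYZ reached it in every group and KRT8 in every group but AMO1 CfzR. The part of other cells in the results was not tested, and in bulk RNA fewer cells with a transcript cannot be told apart from less transcript per cell.

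The libraries labelled AMO1 CfzR stood apart from their label. They correlated with the 6 L363 libraries at r between 0.986 and 0.992 and with the 4 other AMO1 libraries at r between 0.878 and 0.883. ABCB1, the drug efflux pump whose gain is known in carfilzomib-resistant myeloma cells, was at 684 and 668 FPKM in them and at 288 and 312 FPKM in L363 CfzR. Results for these libraries are therefore given against both AMO1 WT and L363 WT, and the other comparisons were also run without them.

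WT lines differed widely in these genes, each line with its own pattern of phosphatases and Sproutys. A gene was called between the WT lines at a limma moderated F test adjusted p under 0.05 and a range of at least 1 between the lines' mean log2(FPKM + 1), and 9 of the 10 genes were called, as were 52.2% of all genes tested. The range between the lines had a median of 2.97 over the 10 genes and of 1.04 over all genes. The plot of FPKM by library shows that no WT line was highest, or lowest, for all 10 genes.

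**Figure D1:**
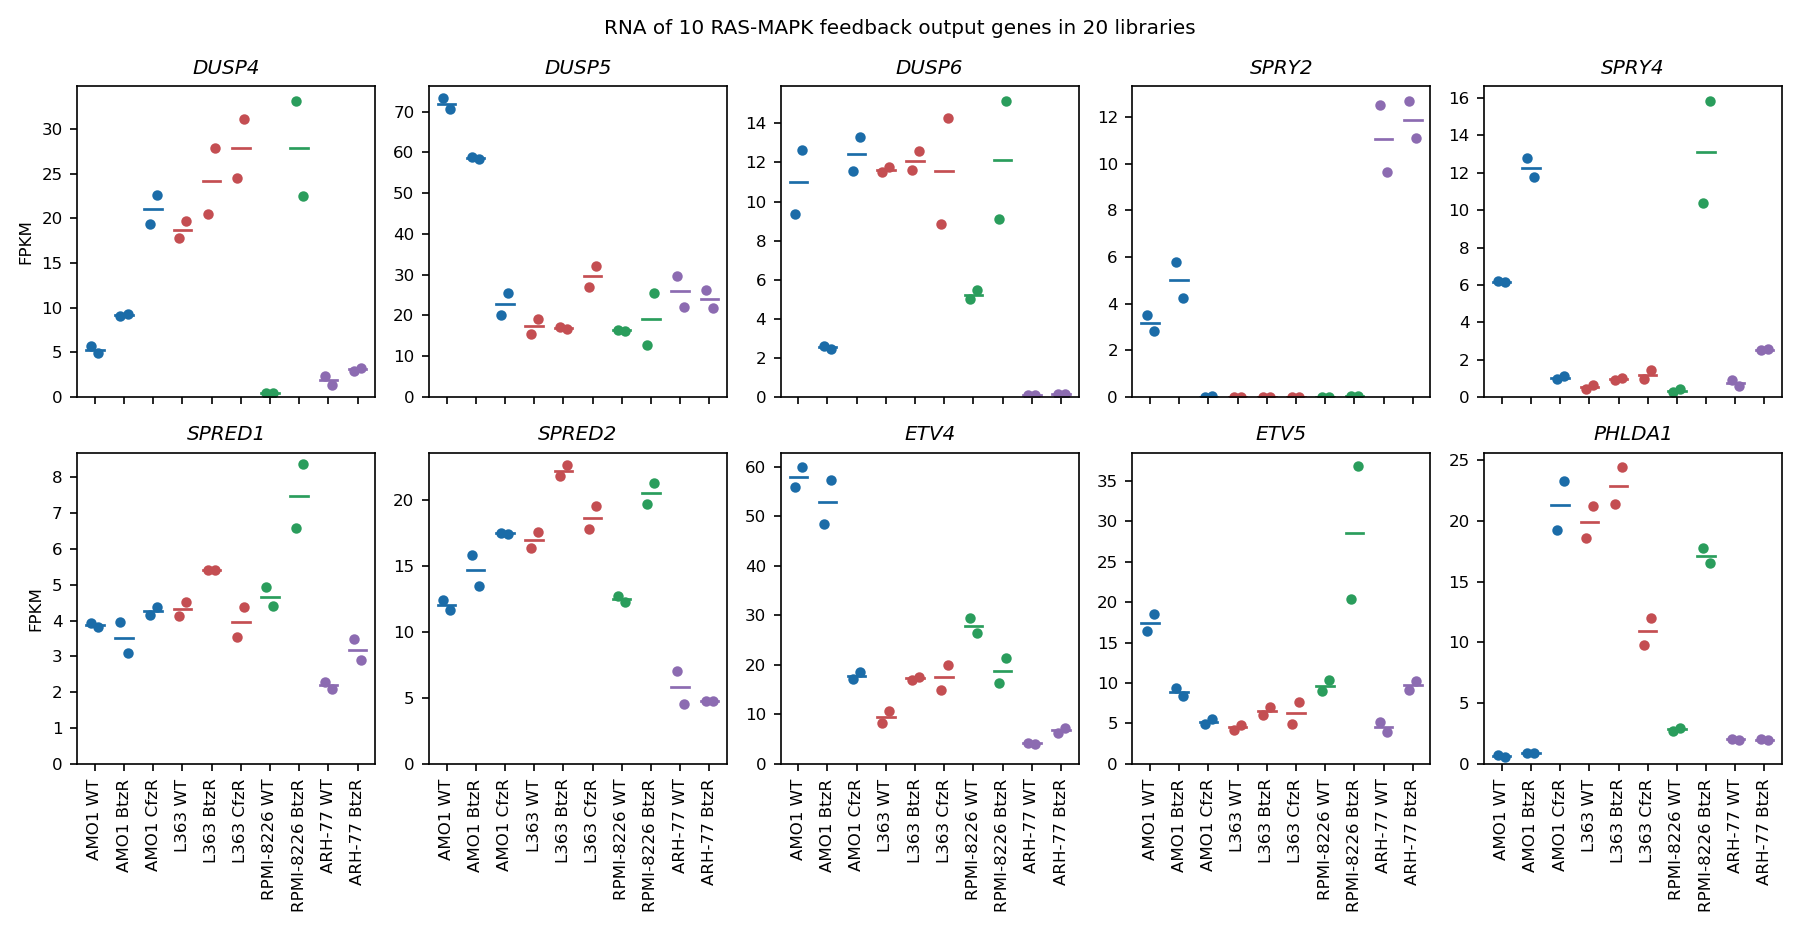
FPKM (y axis, linear, from 0) of each of the 10 genes in the 20 libraries, with the 10 groups on the x axis, points for the 2 replicates and a bar for their mean, colored by labelled line. DUSP4, SPRY4, ETV5 and PHLDA1 stood higher in RPMI-8226 BtzR than in RPMI-8226 WT, DUSP6 stood at 2.63 and 2.46 FPKM in AMO1 BtzR, and the AMO1 CfzR points lay near those of L363.

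Among the phosphatases, DUSP4, a nuclear phosphatase, was at 17.8 and 19.7 FPKM in L363 WT, 5.66 and 4.87 in AMO1 WT, 2.40 and 1.31 in ARH-77 WT, and 0.46 and 0.44 in RPMI-8226 WT (adjusted p = 8.41e-10). The lines did not overlap. DUSP5, also a nuclear ERK phosphatase, was highest in AMO1 WT at 73.3 and 70.6 FPKM. It lay at 29.7 and 22.1 in ARH-77 WT, 15.5 and 19.2 in L363 WT and 16.5 and 16.3 in RPMI-8226 WT (adjusted p = 1.79e-06). L363 and RPMI-8226 overlapped. DUSP6, a cytoplasmic ERK phosphatase, was at 9.35 and 12.6 FPKM in AMO1 WT and 11.5 and 11.8 in L363 WT. It was at 5.02 and 5.46 in RPMI-8226 WT, and 0.09 and 0.11 in ARH-77 WT (adjusted p = 1.10e-09). DUSP6 was thus at about 0.1 FPKM in the B-lymphoblastoid line, the difference from L363 WT being 3.52 ± 0.21 (SE) on the log2 scale.

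The Sproutys followed another order. SPRY2 was at 12.5 and 9.64 FPKM in ARH-77 WT, the line with the lowest DUSP6, and at 3.50 and 2.82 in AMO1 WT, and was listed at 0 in both libraries of L363 WT and of RPMI-8226 WT (adjusted p = 1.76e-12). Across all groups it was listed at 0 in 9 of 20 libraries. SPRY4 was at 6.22 and 6.13 FPKM in AMO1 WT and below 1 FPKM in every other WT library, at 0.89 and 0.57 in ARH-77, 0.45 and 0.65 in L363 and 0.28 and 0.41 in RPMI-8226 (adjusted p = 3.91e-09). AMO1 was thus the WT line with both Sproutys above 1 FPKM.

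The Spreds, which bring the RAS GTPase activator neurofibromin to the membrane, varied least. SPRED1 was at 3.93 and 3.83 FPKM in AMO1 WT, 4.14 and 4.53 in L363 WT, 4.93 and 4.42 in RPMI-8226 WT and 2.30 and 2.09 in ARH-77 WT. Its range of 0.83 was below the fold threshold (adjusted p = 6.83e-05), and it was called with a pseudocount of 0.1 or 0.01. SPRED2 was at 16.4 and 17.6 FPKM in L363 WT, 12.7 and 12.3 in RPMI-8226 WT, 12.5 and 11.7 in AMO1 WT, and 7.03 and 4.57 in ARH-77 WT (adjusted p = 5.83e-07). Both Spreds were lowest in ARH-77, whereas SPRY2 was highest there.

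ETV4 was at 55.9 and 60.0 FPKM in AMO1 WT, 29.4 and 26.5 in RPMI-8226 WT, 8.21 and 10.7 in L363 WT, and 4.26 and 4.03 in ARH-77 WT (adjusted p = 5.60e-11). Its paralog ETV5 was at 16.4 and 18.6 FPKM in AMO1 WT, 8.96 and 10.4 in RPMI-8226 WT, 4.25 and 4.8 in L363 WT, and 5.16 and 3.97 in ARH-77 WT (adjusted p = 5.05e-06). Both factors were highest in AMO1 and next in RPMI-8226, and ETV5 overlapped between L363 and ARH-77. PHLDA1 was at 18.6 and 21.2 FPKM in L363 WT, 2.71 and 2.99 in RPMI-8226 WT, 2.08 and 1.97 in ARH-77 WT and 0.71 and 0.57 in AMO1 WT (adjusted p = 1.83e-12), the reverse of ETV4 between L363 and AMO1.

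Resistant cells were then compared with the WT cells of the same line, which asks how ERK output genes stand in cells that have become resistant to proteasome inhibitors. A gene was called at a limma Benjamini-Hochberg adjusted p under 0.05 over all genes tested and a difference of at least 1 on the log2(FPKM + 1) scale. With 2 libraries in each group, the SE of a gene was pooled over the replicates of all 10 groups. The p-values measure this pooled spread between replicates. They do not measure how separately evolved resistant cells of the same line would differ.

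In RPMI-8226 BtzR cells, 5 of the 10 genes rose and 0 fell against RPMI-8226 WT. Called in this comparison were 13.8% of all genes, and called higher were 5.91%. The median difference over the 10 genes was 0.85, against 0.05 over all genes tested. DUSP4 and SPRY4, which were below 1 FPKM in the WT cells, were at 10 FPKM or more in both BtzR libraries. Libraries of the groups were fully apart for 9 of the 10 genes, the exception being DUSP5. How many of all genes tested were apart in this way was not computed, so this count does not distinguish the 10 genes from the rest. Lineage markers differed between the same groups: the 7 B cell markers summed to 12.3 to 12.5 FPKM in WT, with CD79B, CIITA and CR2 at 1 FPKM or more, and to 0.90 to 1.08 in BtzR, with 0 genes at that level. The 7 plasma cell markers summed to 515 to 537 FPKM in WT and 506 to 525 in BtzR, but among them TNFRSF17, which encodes the receptor BCMA, was at 94.0 and 98.1 FPKM in WT and 7.86 and 4.93 in BtzR. Their part in the results was not tested.

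DUSP4 was at 33.2 and 22.5 FPKM in RPMI-8226 BtzR against 0.46 and 0.44 in WT, a 61.9-fold ratio of means (log2 difference 4.29 ± 0.20, adjusted p = 1.29e-10). This brought it from the lowest mean of the 10 groups to the highest, overlapping L363 CfzR. DUSP6 was at 9.13 and 15.2 FPKM against 5.02 and 5.46 (1.04 ± 0.21, adjusted p = 6.35e-04). This call rested on the size threshold: the difference was 0.70 without BtzR replicate 2 and 0.99 without WT replicate 1 or after quantile normalization, with adjusted p still under 0.05 in each. DUSP5 was at 12.7 and 25.6 FPKM in BtzR, on both sides of the WT values of 16.5 and 16.3 (0.13 ± 0.23, adjusted p = 0.661).

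SPRY4 was at 10.4 and 15.9 FPKM against 0.28 and 0.41, a 38.1-fold ratio (3.37 ± 0.16, adjusted p = 1.39e-10), the highest mean of the 10 groups, overlapping AMO1 BtzR. With a pseudocount of 0.01 the SPRY4 difference was 5.20. SPRY2 was listed at 0 in both WT libraries and was at 0.03 and 0.04 FPKM in BtzR, so that SPRY4 was the Sprouty of the 10 genes that rose. The same pseudocount put SPRY2 past both thresholds at 2.16, although its BtzR level was under 0.1 FPKM. SPRED1 was at 6.58 and 8.37 FPKM against 4.93 and 4.42 (0.57 ± 0.13, adjusted p = 0.00134). SPRED2 was at 19.8 and 21.3 FPKM against 12.7 and 12.3 (0.67 ± 0.13, adjusted p = 5.09e-04). Both Spreds were thus higher in every BtzR library than in every WT library but stayed below the fold threshold.

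The ETS factors differed in opposite directions. ETV5 was at 20.4 and 36.8 FPKM against 8.96 and 10.4 (1.42 ± 0.22, adjusted p = 7.37e-05) and reached its highest mean of the 10 groups. ETV4 was at 16.3 and 21.4 FPKM against 29.4 and 26.5 (-0.56 ± 0.15, adjusted p = 0.00647), lower in both BtzR libraries but short of the fold threshold. Without BtzR replicate 1 the ETV4 difference was -0.37 (adjusted p = 0.0925). PHLDA1 was at 17.7 and 16.5 FPKM against 2.71 and 2.99, a 6.01-fold ratio (2.24 ± 0.12, adjusted p = 4.13e-10). By adjusted p alone, without the fold threshold, 8 of the 10 genes passed, as did 54.3% of all genes.

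The BtzR replicates of RPMI-8226 were unequal for several of these genes. DUSP5, DUSP6, SPRY2, SPRY4, SPRED1, SPRED2, ETV4 and ETV5 were higher in replicate 2, and DUSP4 and PHLDA1 in replicate 1. EGR1, an immediate-early gene picked out after its values were seen, was at 0.73 and 10.5 FPKM in the 2 BtzR libraries against 0.76 and 0.53 in WT. The part of this inequality in the results was not tested. The RPMI-8226 BtzR libraries correlated with RPMI-8226 WT at r between 0.903 and 0.905 and with other WT lines at r of at most 0.857.

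**Figure D2:**
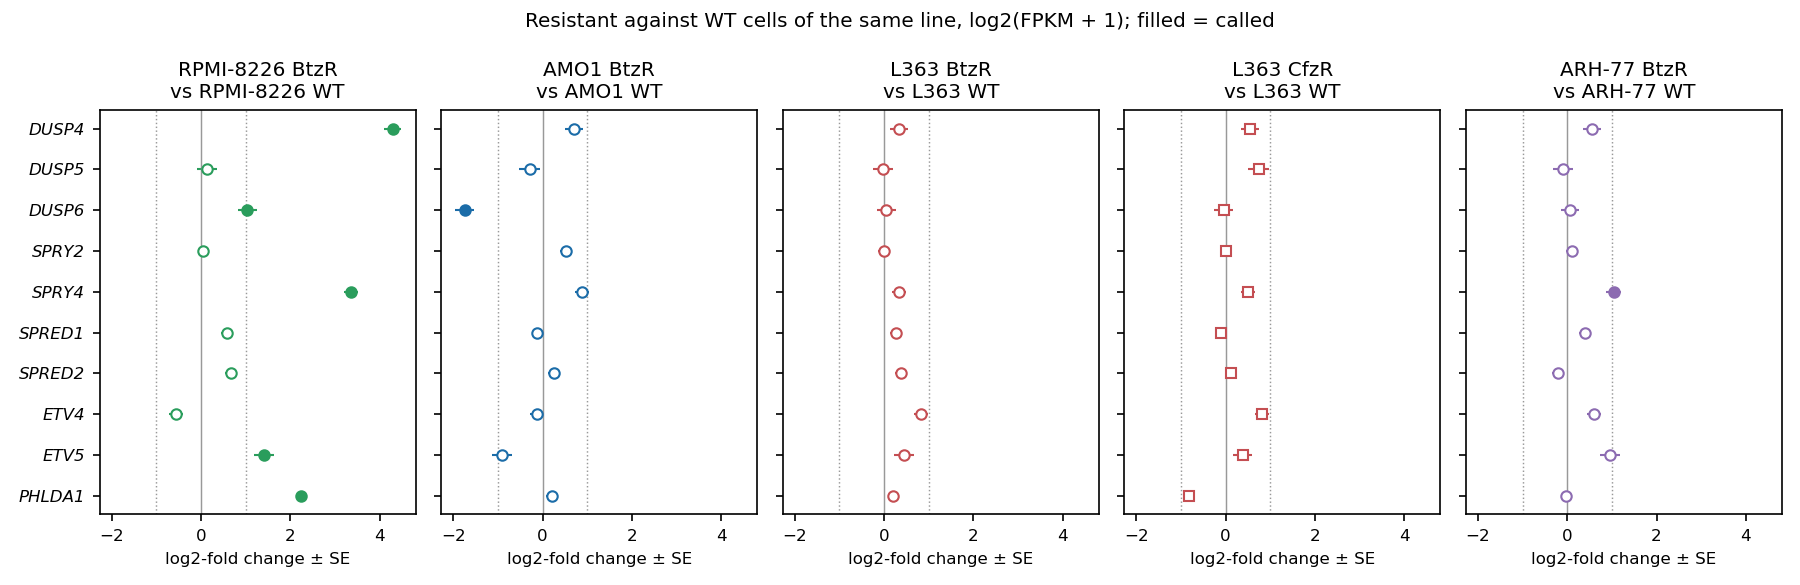
Difference of each of the 10 genes between resistant and WT cells of the same line on the log2(FPKM + 1) scale (x axis, limma estimate with its SE as bars), with a panel for each comparison and dotted lines at -1 and 1. Filled points passed both the adjusted p and the size threshold: 5 genes in RPMI-8226 BtzR, DUSP6 in AMO1 BtzR, SPRY4 in ARH-77 BtzR and 0 in L363.

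Other genes of the pathway were examined as 7 lists holding 79 genes, 70 of them tested. In RPMI-8226 BtzR 18 of the 70 rose and 3 fell, 30.0% in all against the 13.8% over all genes. The lists were chosen with earlier results of these data known, so these shares are a description and do not test for an excess. A gene was tested once its mean reached 1 FPKM in any group. This count and those of the single lists can thus include genes that passed this filter through RPMI-8226 BtzR alone. Receptors were the list with the largest median difference, 0.93, with 6 of 12 higher and 1 lower. FGFR2 was at 17.4 and 18.0 FPKM against 0.96 and 1.21 in WT (3.16 ± 0.10, adjusted p = 2.35e-12). FGFR1 was at 3.62 and 5.33 FPKM against 0.18 and 0.18 (2.2 ± 0.12), and FGFR4 at 17.1 and 19.5 against 4.41 and 5.25 (1.73 ± 0.15). These are receptors for fibroblast growth factors, whose signal runs through RAS to ERK.

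Downstream of the receptors, of the 6 RAS GTPase activators, which switch RAS off, RASA1 rose to 64.2 and 78.2 FPKM from 12.7 and 16.0 (2.23 ± 0.15) and RASA3 fell to 9.68 and 9.49 from 43.0 and 45.4 (-2.09 ± 0.09). In the kinase cascade 0 of 8 genes rose and 1 fell, beside 13.8% called over all genes. This was MAPK3, which encodes ERK1 and fell to 25.1 and 27.7 FPKM from 59.2 and 58.9 (-1.13 ± 0.15).

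Of 12 paralogs of the 10 genes, 4 rose and 0 fell, where 13.8% of all genes were called and 5.91% called higher. SPRY1, another Sprouty gene, was at 10.5 and 12.8 FPKM against 1.33 and 1.51 (2.38 ± 0.11), ETV1 at 10.4 and 11.4 against 1.65 and 1.52 (2.2 ± 0.11), and DUSP8, a phosphatase of the stress kinases, at 2.17 and 4.12 against 0.44 and 0.68 (1.37 ± 0.17). Of 12 other genes induced by ERK, 5 rose and 0 fell, beside the same shares of all genes. JUN was at 14.8 and 20 FPKM against 2.07 and 1.88 (2.61 ± 0.19), the receptor gene EPHA2 at 2.62 and 3.55 against 0.20 and 0.34 (1.68 ± 0.09), and IER3 at 2.55 and 6.55 against 0.60 and 0.65 (1.67 ± 0.27). EGR1 was among the 5, although its libraries overlapped between the groups. EPHA2 was under 1 FPKM in every other group and was tested only through its level in RPMI-8226 BtzR. Of 9 transcription factors that act on such genes, ETS1 alone was called, beside the 13.8% over all genes. It was at 17.4 and 12.8 FPKM against 2.2 and 2.22 (2.31 ± 0.19).

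**Figure D3:**
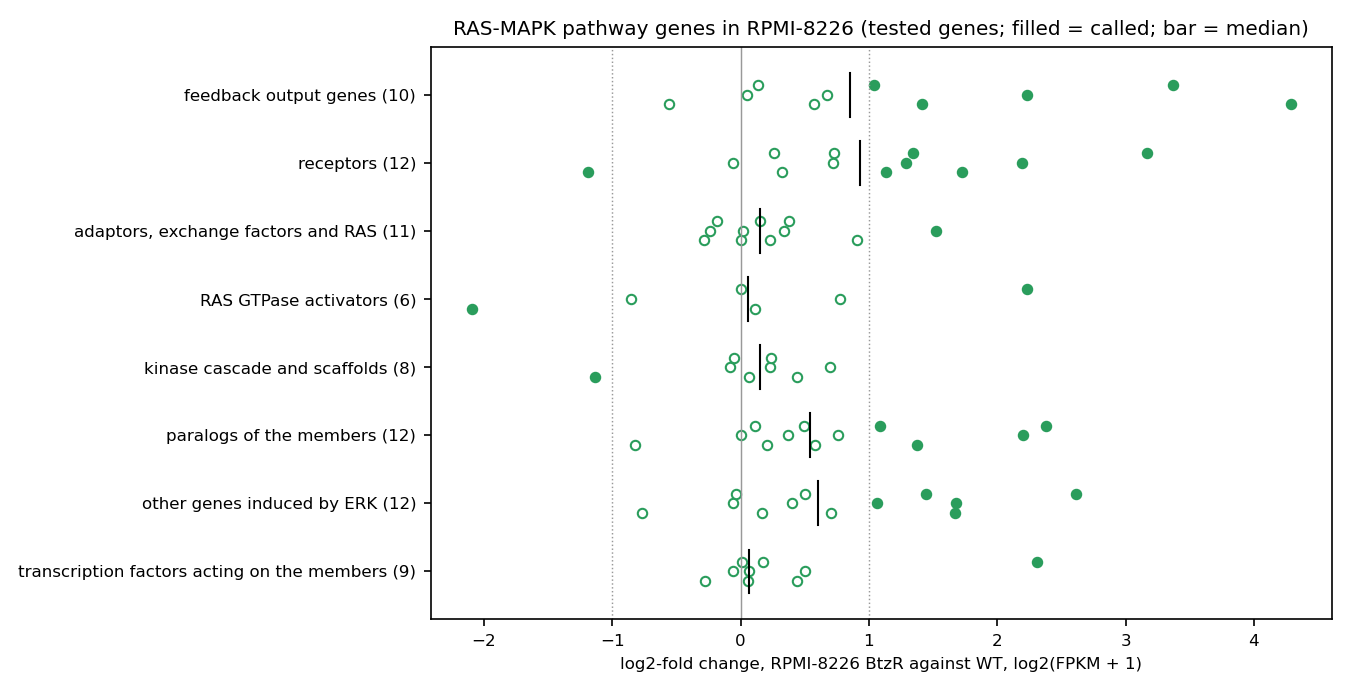
Difference between RPMI-8226 BtzR and WT on the log2(FPKM + 1) scale (x axis) for each tested gene of the 10 feedback output genes and the 7 pathway lists (rows, with the number tested), where filled points were called, black bars are medians and dotted lines stand at -1 and 1. The median was 0.85 for the 10 genes and 0.93 for receptors, and 0.15 for the kinase cascade, in which MAPK3 was the called gene.

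AMO1 BtzR cells differed from AMO1 WT in a mixed way: DUSP6 fell, the Sproutys were higher and ETV5 was lower. Of the 10 genes 1 was called, as were 9.18% of all genes, and the median difference was 0.04. DUSP6 was at 2.63 and 2.46 FPKM against 9.35 and 12.6 in WT, a 4.32-fold lower mean (-1.74 ± 0.21, adjusted p = 7.56e-06). The groups did not overlap, and DUSP6 was called in each of the fits that left out a library. The summed plasma cell markers were at 3360 to 3687 FPKM in AMO1 WT and 1707 to 1854 in BtzR, and the B cell markers at 59.7 to 61.5 and 121 to 123, and their part in the results was not tested.

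The other genes in AMO1 BtzR stayed under the fold threshold. SPRY4 was at 12.8 and 11.8 FPKM against 6.22 and 6.13 (0.89 ± 0.16, adjusted p = 2.92e-04), and SPRY2 at 5.78 and 4.22 against 3.50 and 2.82 (0.52 ± 0.13, adjusted p = 0.00334, or 0.33 and adjusted p = 0.0628 without BtzR replicate 1). DUSP4 was at 9.02 and 9.33 FPKM against 5.66 and 4.87 (0.70 ± 0.20, adjusted p = 0.00872, or 0.61 and adjusted p = 0.0668 without WT replicate 2). ETV5 was at 9.37 and 8.38 FPKM against 16.4 and 18.6 (-0.90 ± 0.22, adjusted p = 0.00329). With DUSP6 these 4 genes made 5 of 10 by adjusted p alone with all libraries, against 51.2% of all genes. The 4 genes lay apart between the groups, but so did 8 of the 10 genes in this comparison. How many of all genes were apart was not computed, so being apart does not set these genes off.

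The remaining 5 genes of AMO1 BtzR had adjusted p over 0.05. DUSP5 was at 58.8 and 58.5 FPKM, below both WT libraries (-0.29 ± 0.23), and ETV4 at 48.4 and 57.3 overlapped WT (-0.13 ± 0.15). SPRED1 was at 3.95 and 3.10 FPKM (-0.12 ± 0.13), SPRED2 at 15.9 and 13.5 (0.26 ± 0.13) and PHLDA1 at 0.91 and 0.86 (0.20 ± 0.12). DUSP5 and ETV4 had their highest group means in AMO1 WT and AMO1 BtzR, and PHLDA1 was under 1 FPKM in all 4 libraries.

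Of the 70 pathway genes tested, 7 rose and 3 fell in AMO1 BtzR, 14.3% in all against 9.18% over all genes. The limits on the lists and the filter given for RPMI-8226 hold here too. Receptors went both ways, with IL6ST, the shared signaling chain of the interleukin-6 receptor family, at 27.1 and 22.0 against 6.90 and 6.57 (1.72 ± 0.13) and IL6R at 2.88 and 3.0 against 24.0 and 21.0 (-2.57 ± 0.14). RASGRP2, an exchange factor of RAS-family GTPases, fell to 0.28 and 0.34 FPKM from 6.27 and 6.30 (-2.48 ± 0.24). While DUSP6 fell, 3 other phosphatase genes rose among the 12 tested paralogs of the 10 genes: DUSP10 by 1.46 ± 0.13, DUSP9 by 1.32 ± 0.10 and DUSP8 by 1.13 ± 0.17, to between 1.64 and 2.47 FPKM. JUN rose by 1.06 ± 0.19 and ETS1 by 3.09 ± 0.19, the latter from 0.59 and 0.33 to 9.72 and 13.3 FPKM.

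In L363, BtzR and CfzR cells each had 0 of the 10 genes called against L363 WT, where 2.06% and 1.93% of all genes were called. At an unadjusted limma p under 0.05 there were 3 and 5 of the 10. The share of all genes at that p was not computed, so these counts do not set the 10 genes apart. Both comparisons use the same WT libraries. The median difference over the 10 genes was 0.30 in BtzR and 0.25 in CfzR. By adjusted p alone, 1 gene passed in BtzR and 2 in CfzR, against 11.2% and 8.47% of all genes, and ETV4 was 1 of them in each.

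ETV4 was at 17.0 and 17.6 FPKM in L363 BtzR and at 15.0 and 19.96 in L363 CfzR, against 8.21 and 10.7 in WT (0.82 ± 0.15 in each, adjusted p = 0.00217 and 0.00246). All 4 resistant libraries lay above both WT libraries. The CfzR difference moved both ways when a library was left out: without CfzR replicate 1 it was 1.01, past the fold threshold, and without WT replicate 1 it was 0.64 with an adjusted p of 0.0541. PHLDA1 was at 9.82 and 12.02 FPKM in CfzR against 18.6 and 21.2 in WT (-0.81 ± 0.12, adjusted p = 2.36e-04) and at 21.4 and 24.4 in BtzR (0.19 ± 0.12, adjusted p = 0.361).

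Among the phosphatases in L363, DUSP4 was at 20.5 and 27.9 FPKM in BtzR (0.34 ± 0.20) and 24.6 and 31.1 in CfzR (0.54 ± 0.20), above both WT libraries in each. DUSP5 was at 17.3 and 16.7 FPKM in BtzR (-0.02 ± 0.23) and 27.0 and 32.1 in CfzR (0.74 ± 0.23, adjusted p = 0.0650). DUSP6 was at 11.6 and 12.6 FPKM in BtzR and 8.83 and 14.3 in CfzR, overlapping WT in each. Adjusted p exceeded 0.05 in all of these 6 tests.

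SPRY2 was listed at 0 in all 6 L363 libraries. SPRY4 was at 0.91 and 1.01 FPKM in BtzR (0.34 ± 0.16) and 0.96 and 1.42 in CfzR (0.49 ± 0.16, adjusted p = 0.0741), against 0.45 and 0.65 in WT. With a pseudocount of 0.01 the CfzR difference of SPRY4 was 1.10 and was called. SPRED1 was at 5.41 and 5.42 FPKM in BtzR and 3.54 and 4.37 in CfzR, SPRED2 at 21.8 and 22.7 in BtzR and 17.8 and 19.6 in CfzR, and ETV5 at 6.06 and 7.03 in BtzR and 4.95 and 7.66 in CfzR. None of these 3 genes passed by adjusted p in either comparison by limma, although SPRED2 and ETV5 lay above both WT libraries in each. Libraries were apart for 7 of the 10 genes in each comparison, and the share over all genes was not computed.

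The 2 inhibitors were compared within L363. CfzR against BtzR cells had 1 of the 10 genes called, PHLDA1 (-1.01 ± 0.12, adjusted p = 3.72e-05), and 1.47% of all genes. By adjusted p alone PHLDA1 was again the 1 gene, against 6.13% of all genes. The call was lost without BtzR replicate 2 (-0.91) and without CfzR replicate 1 (-0.87). DUSP5 differed by 0.76 ± 0.23 (adjusted p = 0.0715).

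Of the 70 other pathway genes tested, 2.86% were called in L363 BtzR, 4.29% in L363 CfzR and 5.71% between CfzR and BtzR, against 2.06%, 1.93% and 1.47% of all genes. In BtzR 1 rose and 1 fell: SOS2, an exchange factor that loads RAS with GTP, at 16.8 and 16.8 FPKM against 6.73 and 6.76 (1.2 ± 0.18), and IL6R at 5.35 and 5.97 against 13.5 and 11.6 (-1.02 ± 0.14). In CfzR 2 rose and 1 fell, with MET, the hepatocyte growth factor receptor, at 7.53 and 8.02 FPKM against 1.47 and 1.40 (1.85 ± 0.09), RASAL2 at 3.40 and 3.91 against 0.93 and 1.02 (1.24 ± 0.08) and RASGRP3 at 6.86 and 10.9 against 18.0 and 19.4 (-1.03 ± 0.22). Between CfzR and BtzR 4 were called, MET (1.92), IL6R (1.73) and JUN (1.00) higher in CfzR and SOS2 (-1.16) lower. Each of these genes belongs to the pathway by the choice of the lists, which was made with earlier results of these data known.

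In ARH-77 BtzR cells 1 of the 10 genes rose, SPRY4, whereas 1.6% of all genes were called. SPRY4 was at 2.52 and 2.55 FPKM against 0.89 and 0.57 in WT (1.04 ± 0.16, adjusted p = 3.75e-04), a 3.47-fold ratio, and the difference was 1.69 or 1.82 with a pseudocount of 0.1 or 0.01. Without WT replicate 2 the difference was 0.90 and the call was lost. ETV5 was at 9.16 and 10.3 FPKM against 5.16 and 3.97 (0.95 ± 0.22, adjusted p = 0.00926) and was called without WT replicate 1 (1.11) or BtzR replicate 1 (1.03). Without WT replicate 2 (0.80, adjusted p = 0.0625) or BtzR replicate 2 (0.88, adjusted p = 0.0740) ETV5 no longer passed the adjusted p. ETV4 was at 6.27 and 7.31 FPKM against 4.26 and 4.03 (0.60 ± 0.15, adjusted p = 0.0170), and it too was over 0.05 without WT replicate 2 (0.56, adjusted p = 0.0633) or BtzR replicate 2 (0.50, adjusted p = 0.133). By adjusted p alone these 3 genes passed with all libraries, against 13.6% of all genes.

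For the other 7 genes of ARH-77 BtzR adjusted p was over 0.05. SPRY2 was at 12.7 and 11.1 FPKM (0.10 ± 0.13), DUSP4 at 2.93 and 3.29 (0.55 ± 0.20, or 0.83 and adjusted p = 0.0132 without WT replicate 1), DUSP5 at 26.2 and 21.9 (-0.09 ± 0.23) and SPRED1 at 3.49 and 2.89 (0.39 ± 0.13, adjusted p = 0.0548). SPRED2 was at 4.77 and 4.75 FPKM and PHLDA1 at 2.02 and 1.93, each overlapping WT. DUSP6 was at 0.17 and 0.13 FPKM, so that it was under 1 FPKM in all 4 libraries of this line. Of the 70 other pathway genes tested by limma 0 were called in ARH-77, and 19 had an unadjusted p under 0.05. The share of all genes at that unadjusted p was not computed.

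The libraries labelled AMO1 CfzR differed from AMO1 WT in 7 of the 10 genes, 2 higher and 5 lower, and 17.1% of all genes were called. This comparison contains the difference between these libraries and AMO1 seen across all genes. PHLDA1 was at 19.3 and 23.3 FPKM (3.76 ± 0.12, adjusted p = 8.49e-13) and DUSP4 at 19.3 and 22.6 (1.81 ± 0.20). SPRY2 was listed at 0 in replicate 1 and was at 0.03 FPKM in replicate 2 (-2.03 ± 0.13, or -4.83 and -7.30 with a pseudocount of 0.1 and 0.01), and SPRY4 was at 0.94 and 1.14 (-1.82 ± 0.16). ETV4 was at 17.2 and 18.5 FPKM (-1.65 ± 0.15), DUSP5 at 20.2 and 25.6 (-1.62 ± 0.23) and ETV5 at 4.90 and 5.57 (-1.57 ± 0.22). In AMO1 WT minus L363 WT the same 7 genes differed as PHLDA1 -3.67, DUSP4 -1.66, SPRY2 2.05, SPRY4 2.21, ETV4 2.50, DUSP5 2.00 and ETV5 1.74, a comparison that uses the same AMO1 WT libraries. By adjusted p alone 8 of the 10 genes passed, against 57.7% of all genes, the eighth being SPRED2 at 17.5 and 17.5 FPKM (0.50 ± 0.13).

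Against L363 WT the libraries labelled AMO1 CfzR had 0 of the 10 genes called by limma, with 1.66% of all genes, and 2 of the 10 at an unadjusted p under 0.05. The share of all genes at that unadjusted p was not computed. By adjusted p alone ETV4 passed (0.86 ± 0.15, adjusted p = 0.00200), against 6.92% of all genes, and was past the fold threshold without L363 WT replicate 2 (1.03). DUSP6 was at 11.6 and 13.3 FPKM and SPRED1 at 4.17 and 4.38, both overlapping L363 WT. Of the 70 pathway genes MET at 6.0 and 6.66 FPKM (1.59 ± 0.09) and RASAL2 at 3.69 and 3.33 (1.19 ± 0.08) rose, and L363 CfzR, which is compared with the same WT libraries, had 1.85 and 1.24 for them.

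Whether the BtzR difference itself varied between the 4 lines was asked with a moderated F test of the interaction in limma, in which 8 of the 10 genes passed at an adjusted p under 0.05, as did 71.1% of all genes. The range of the BtzR difference between lines had a median of 1.82 over the 10 genes and 0.76 over all genes. For DUSP4 the difference ran from 0.34 in L363 to 4.29 in RPMI-8226 (adjusted p = 3.77e-08), and for SPRY4 from 0.34 in L363 to 3.37 in RPMI-8226 (adjusted p = 1.22e-07). PHLDA1 rose in RPMI-8226 alone, with differences of -0.02 to 0.20 in the other lines (adjusted p = 5.02e-08).

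For DUSP6, ETV5 and ETV4 the BtzR difference passed the adjusted p in opposite directions in different lines. Its sign also varied between lines for SPRED1, SPRED2, DUSP5 and PHLDA1, whose negative differences had adjusted p over 0.05. DUSP6 ranged from -1.74 in AMO1 to 1.04 in RPMI-8226 (adjusted p = 1.03e-05). ETV5 ranged from -0.90 in AMO1 to 1.42 in RPMI-8226 (adjusted p = 8.06e-05), and ETV4 from -0.56 in RPMI-8226 to 0.82 in L363 (adjusted p = 1.76e-04). SPRED2 (adjusted p = 0.00467) and SPRED1 (0.0180) passed with ranges under 1, and SPRED1 did not pass without AMO1 WT replicate 1 or AMO1 BtzR replicate 2 (adjusted p up to 0.0910). DUSP5 (adjusted p = 0.655) and SPRY2 (0.0590) did not pass. DUSP5 passed without RPMI-8226 BtzR replicate 1 (adjusted p = 0.0224), and SPRY2 passed without AMO1 WT replicate 1, AMO1 BtzR replicate 2 or either ARH-77 WT library (adjusted p down to 0.0106).

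The 10 genes did not vary as a single unit across the 10 group means. Of 45 pairs, 15 had Pearson's r above 0.5, 6 had r below -0.5 and the median was 0.24, as a description over 10 points in which groups share lines. DUSP6 and SPRED2 were the closest pair (r = 0.92), followed by SPRED1 with SPRED2 (0.77), SPRY4 with ETV5 (0.76) and DUSP4 with PHLDA1 (0.75). SPRY2 ran opposite to DUSP6 (-0.88), SPRED2 (-0.87), PHLDA1 (-0.78) and SPRED1 (-0.77), its 2 ARH-77 groups holding its highest means and the lowest of DUSP6 and SPRED2. DUSP4 and DUSP5, both nuclear phosphatases, had r = -0.10.

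**Figure D4:**
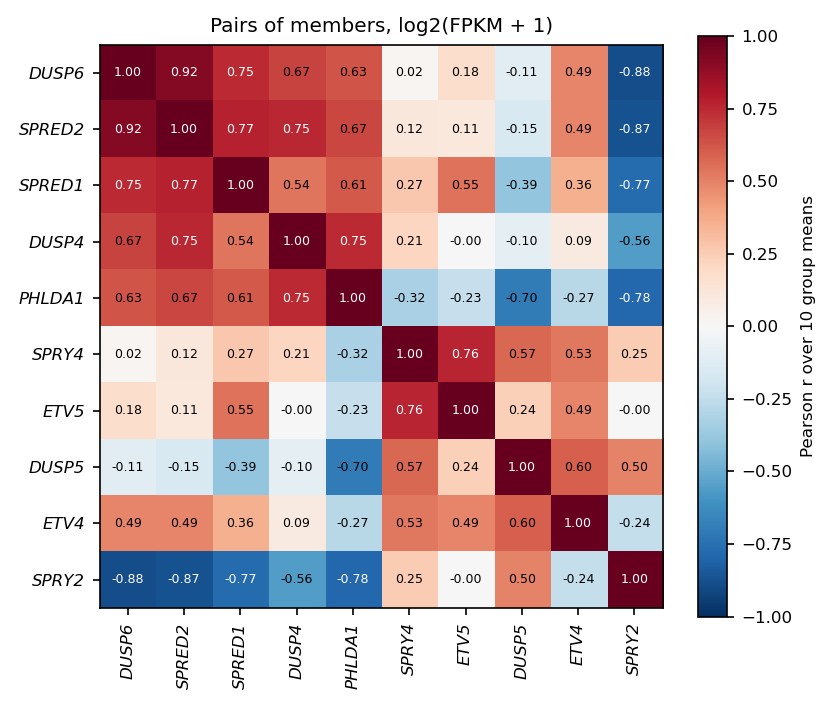
Pearson's r of each pair of the 10 genes over the 10 group means of log2(FPKM + 1), with genes on both axes, the value in each cell and color from -1 (blue) to 1 (red). DUSP6, SPRED1, SPRED2, DUSP4 and PHLDA1 had r of 0.54 to 0.92 among themselves, and SPRY2 had r from -0.88 to -0.56 with these 5.

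Over the same 10 group means, the genes most like DUSP6 among all tested were PIGW (r = 0.995), CARNMT1 (0.987) and NUDT5 (0.984). Those most like SPRY4 were PXYLP1 (0.951), CNKSR2 (0.949) and EFNB1 (0.939). DUSP4 was most like ZFAND3 (0.972) and TMCC3 (0.962), and PHLDA1 was most like DCLK2 (0.978) and CXXC4 (0.970). For none of these 4 genes was another of the 10 among the 5 most similar. These r are the highest among all genes tested, over 10 points in which groups share lines, and are a description.

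For each gene the groups were ordered by their means, and neighbours in that order were checked for overlap of their libraries. Groups that are not neighbours were not compared here, and the share over all genes was not computed. Neighbouring groups in that order overlapped in their libraries in 3 of 9 steps for SPRED2 and PHLDA1, in 4 for DUSP4, SPRY4 and ETV4, in 5 for DUSP6, and in 6 for DUSP5, SPRY2, SPRED1 and ETV5. The overlapping steps of SPRY2 include groups with means of 0 to 0.035 FPKM. A group apart from its neighbour can still overlap another group. For DUSP5, RPMI-8226 WT (16.5 and 16.3 FPKM) lay apart from L363 BtzR but within L363 WT (15.5 and 19.2). For DUSP6 the top 6 groups, from AMO1 CfzR at a mean of 12.4 FPKM to AMO1 WT at 11.0, each overlapped the next, and RPMI-8226 WT at 5.24, AMO1 BtzR at 2.55 and the ARH-77 groups at 0.15 and 0.10 lay apart below them. For DUSP4 the top 5 groups, from RPMI-8226 BtzR at 27.9 to L363 WT at 18.7, overlapped in the same way, and the other 5 were all apart. The ratio of the highest to the lowest group mean was 124 for DUSP6, 61.9 for DUSP4, 38.1 for SPRY4 and 35.8 for PHLDA1, and was 13.97 for ETV4, 6.32 for ETV5, 4.68 for SPRED2, 4.39 for DUSP5 and 3.41 for SPRED1.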

How the data were processed

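RNA was extracted and sequenced by BGI (BGISEQ-500). For each of the 20 libraries the authors deposited an FPKM value of 18305 genes. The submitters' processing notes name HISAT2 2.0.4, Bowtie2 2.2.5 and RSEM 1.2.12, with no roles, and the genome build is not given in the sources used here. Every value column was matched to a library by its label (0 were left unmatched).

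Values were transformed as log2(FPKM + 1), so that differences of low genes are understated. Genes whose group mean reached 1 FPKM somewhere were kept. The 10 group means were fitted with limma 3.58.1 in R 4.3.3 (two-sided moderated tests with a mean-variance trend, 10 residual degrees of freedom, Benjamini-Hochberg adjustment over 13089 genes). With 2 libraries against 2 an exact permutation test cannot go below p = 0.33, so none was run. Plots and descriptions used Python 3.11.15 with pandas 2.3.3, numpy 2.4.6 and matplotlib 3.10.9. The scripts were tested on simulated data.

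The 10 genes, the 7 pathway lists and the marker lists were chosen with earlier results of these data known. All 10 genes are named, and in each list and comparison at most 3 called genes with the largest change, unless said otherwise. Some genes of the pathway lists that this rule would name are not reported here by name, and counts over the lists include them. Alternatives were other pseudocounts (0.1 and 0.01), no filter, a filter of 5 FPKM, TPM scaling, quantile normalization, no trend, a replicate block, the compared libraries only, leaving out each library and, added after seeing the data, leaving out both AMO1 CfzR libraries.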

Additional observations from a re-analysis of the deposited data

Results flagged for a closer look

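The BtzR difference from WT varied between the 4 lines, by the limma interaction test with adjustment over all genes, for 8 of the 10 genes: DUSP4 (adjusted p = 3.77e-08), PHLDA1 (5.02e-08), SPRY4 (1.22e-07), DUSP6 (1.03e-05), ETV5 (8.06e-05), ETV4 (1.76e-04), SPRED2 (0.00467) and SPRED1 (0.0180). The same test passed for 71.1% of all genes, so a pass alone does not set these genes apart. DUSP4, SPRY4 and PHLDA1 had their largest difference in RPMI-8226, at 4.29, 3.37 and 2.24 on the log2 scale. DUSP6 and ETV5 were lower in AMO1 BtzR (-1.74 and -0.90) and higher in RPMI-8226 BtzR (1.04 and 1.42), with the libraries of the groups apart in each case. ETV4 was lower in RPMI-8226 BtzR (-0.56) and higher in L363 BtzR (0.82) and ARH-77 BtzR (0.60).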

How the results depend on the processing

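Of 1532 results for single genes of the 10 under an alternative, 1479 kept their side of the thresholds and, where the test has a direction, their direction, 8 lost a call, 18 gained one and 27 changed sign. The sign changes concerned 19 differences, 0 of them called, with adjusted p of 0.327 or more as reported and 0.138 or more where the sign had changed. The count of the 10 genes called moved from 0 to 1 for L363 CfzR against WT with a pseudocount of 0.01 (SPRY4), and from 1 to 2 for ARH-77 BtzR with a pseudocount of 0.1 or 0.01 or after quantile normalization (ETV5). Leaving out each library in turn gave 4 to 5 called in RPMI-8226 BtzR, 0 to 2 in ARH-77 BtzR, 0 to 1 in L363 CfzR against WT, in L363 CfzR against BtzR and in AMO1 CfzR against L363 WT, and 8 to 9 in the interaction test. It gave 1 in AMO1 BtzR, 7 in AMO1 CfzR against AMO1 WT, 0 in L363 BtzR and 9 between WT lines in each case. Without both AMO1 CfzR libraries no call of the 10 genes moved. Of 29 differences of the 10 genes past the adjusted p, 6 were over 0.05 in a fit that left out a library, the highest at 0.133 for ETV4 in ARH-77 BtzR. The range between WT lines of DUSP6, SPRY2 and SPRY4 grew by over 1.5 times with a smaller pseudocount, to at most 6.73, 10.1 and 4.15. The cause of these moves was not tested.

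The differences that changed sign ran as follows when a library was left out. Against WT, these were SPRED1 in AMO1 BtzR (-0.25 to 0.021), DUSP6 in AMO1 CfzR (-0.025 to 0.37), DUSP5 in L363 BtzR (-0.17 to 0.12, and 0.033 with TPM scaling), DUSP6 in L363 BtzR (-0.0011 to 0.10), DUSP6 and SPRED1 in L363 CfzR (-0.36 to 0.27 and -0.23 to 0.010), DUSP5 in RPMI-8226 BtzR (-0.34 to 0.61), and DUSP5, SPRED2, PHLDA1 and SPRY2 in ARH-77 BtzR (-0.30 to 0.11, -0.48 to 0.048, -0.050 to 0.0023 and -0.069 to 0.27). For AMO1 CfzR against L363 WT they were SPRED1 (-0.068 to 0.037, and 0.0078 after quantile normalization), DUSP6 (-0.0091 to 0.18), PHLDA1 (-0.042 to 0.22) and SPRED2 (-0.010 to 0.092). For L363 CfzR against BtzR they were ETV4 (-0.20 to 0.19, and 0.0043 after quantile normalization), DUSP4 (-0.010 to 0.42), ETV5 (-0.34 to 0.20) and DUSP6 (-0.41 to 0.22).

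Counts over all genes rose with a smaller pseudocount of 0.1 or 0.01: from 1201 to 1919 or 2024 in AMO1 BtzR, 270 to 580 or 582 in L363 BtzR, 253 to 546 or 517 in L363 CfzR, 1809 to 2722 or 2846 in RPMI-8226 BtzR, 210 to 473 or 465 in ARH-77 BtzR (199 to 347 leaving out a library), 217 to 494 or 510 for AMO1 CfzR against L363 WT and 193 to 383 or 348 for L363 CfzR against BtzR. For AMO1 CfzR against AMO1 WT the count was 2237 and reached 3413 with 0.01.

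The labels share replicate numbers, but deviations of same-numbered replicates correlated at r from -0.0055 to 0.245 over 8 pairs of groups, so the numbers were not taken as pairs. With the replicate block the interaction of SPRY2 passed (adjusted p = 0.0319), which gave 9 of the 10 genes, and no other call of the 10 moved. The block left 1810 genes called in RPMI-8226 BtzR and 1203 in AMO1 BtzR. With unknown depth, values near 0 such as SPRY2 in L363 have no detection limit.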
